A study of Mus musculus with 9 samples.

Results

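The 32 genes described here make cholesterol, regulate its synthesis, move or store it, or hydroxylate it. They were chosen by name, from what the genes are known to do, but with earlier results of these data known. They are 18 enzymes of synthesis, 7 regulators, 3 genes of traffic and esterification and 4 sterol hydroxylases. Probes were matched by the symbol in the array files or by an older symbol of the same gene. All 32 genes had a probe and 31 were tested, among 24891 genes tested on the whole array. Synthesis was compared with the other 14 members, of which 13 were tested.

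Messenger RNA was measured in fluorescence-sorted cells of the adult mouse brain on 9 Agilent arrays read in 1 colour, 3 for each of 3 groups. The groups were SVZ Sox2-GFP cells, from the subventricular zone of mice that express green fluorescent protein under the Sox2 promoter, hippocampal Sox2-GFP cells of the same line, and hippocampal DCX-DsRed cells of a line that expresses DsRed under the Dcx promoter. The mice were 6 to 8 weeks old, tissue of 10 dissections was pooled for an experiment, and RNA of 1000 sorted cells was amplified for each array. Sox2 is a transcription factor of neural stem cells that astrocytes also express, and Dcx encodes a protein of newborn neurons. A reporter under a promoter marks cells in which that promoter is or was recently active, so each group can hold several cell types.

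Cholesterol in the brain is made there, because lipoproteins of the blood hardly cross the blood-brain barrier. Acetyl-CoA is turned into mevalonate, then isoprenoids, squalene and lanosterol, and finally cholesterol. When sterols in the endoplasmic reticulum are low, the escort protein SCAP carries the transcription factors SREBP1 and SREBP2 to the Golgi for cleavage, and INSIG proteins hold them back when sterols are high. Oxysterols, made by the sterol hydroxylases, activate the nuclear receptors LXR alpha and LXR beta and leave the brain more easily than cholesterol does. Myelinating oligodendrocytes and astrocytes are the main makers of brain cholesterol.

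The 9 arrays lay on 3 slides. Slide 1 held DCX-DsRed replicates A and B and SVZ replicate A, slide 2 held hippocampal Sox2-GFP replicates A and B alone, and slide 3 held DCX-DsRed replicate C, SVZ replicates B and C and hippocampal Sox2-GFP replicate C. A fit with a slide term therefore rests on replicate C for the hippocampal Sox2-GFP group. That array stood apart: its correlation with the other arrays over all genes tested was 0.70 to 0.82, against 0.78 to 0.92 among the 8 others. The share of probes well above background was 80.5% to 88.6% over the arrays. The mRNAs of the reporters' own genes did not follow the sort in every group. Sox2 averaged 1.78 ± 0.73 in SVZ Sox2-GFP, 0.33 ± 1.08 in hippocampal Sox2-GFP and 1.60 ± 0.23 in DCX-DsRed cells (SD, n = 3 each). Dcx averaged 1.11 ± 2.998 in SVZ Sox2-GFP, -1.26 ± 1.41 in hippocampal Sox2-GFP and -0.24 ± 1.36 in DCX-DsRed cells (SD, n = 3 each). Against DCX-DsRed cells, the smallest limma adjusted p of these genes was 0.775 in SVZ and 0.327 in hippocampal Sox2-GFP cells. Levels are in log2 with the 75th percentile of each array set to 0, and each unit of difference doubles the signal. A gene is called changed at an adjusted p under 0.05 in limma, after Benjamini-Hochberg adjustment over all 24891 genes.

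Markers of several other cell types differed between the groups. The summed signal of 14 myelinating oligodendrocyte markers, in multiples of the array's 75th percentile, was 29.5 to 92.2 on SVZ arrays, 6.05 to 45.8 on hippocampal Sox2-GFP arrays and 314 to 400 on DCX-DsRed arrays. Against DCX-DsRed cells, 3 of these 14 markers were called lower in SVZ cells, where 1% of all genes were. In hippocampal Sox2-GFP cells 9 of the 14 were called lower, where 1.43% of all genes were. At least 12 were well above background on every array. The sum of 10 choroid plexus markers was 1.94 to 2.90 on SVZ, 51.5 to 174.6 on hippocampal Sox2-GFP and 1.85 to 2.57 on DCX-DsRed arrays. That of 6 measured ependymal markers was 1.28 to 4.63 on SVZ, 12.01 to 19.3 on hippocampal Sox2-GFP and 0.331 to 0.740 on DCX-DsRed arrays, so both lists had their highest sums on the hippocampal Sox2-GFP arrays. That of 10 astrocyte markers was 87.5 to 171.5 on SVZ, 16.3 to 96.9 on hippocampal Sox2-GFP and 32.8 to 41.5 on DCX-DsRed arrays. On hippocampal Sox2-GFP arrays A, B and C it was 86.6, 96.9 and 16.3, so replicate C alone lay below the DCX-DsRed arrays. Replicate C of that group also had the highest choroid plexus sum, 174.6. The 6 oligodendrocyte precursor markers summed to 8.71 to 9.83 on SVZ, 8.29 to 9.65 on hippocampal Sox2-GFP and 21.9 to 27.0 on DCX-DsRed arrays. In hippocampal Sox2-GFP minus DCX-DsRed cells 5 of these 6 were below 0, with Gpr17 at -0.23, while Pdgfra was higher without overlap (2.23). Immature neuron markers (6 measured) summed to 3.39 to 20.1 on SVZ, 2.23 to 4.88 on hippocampal Sox2-GFP and 9.0 to 10.9 on DCX-DsRed arrays. On DCX-DsRed arrays A, B and C Prox1 was the highest of them, at 2.95, 2.19 and 1.99. Their median levels overlapped between hippocampal Sox2-GFP arrays (-1.50 to -0.27) and DCX-DsRed arrays (-0.88 to -0.05). Sums of 7 mature neuron markers were 16.9 to 30.7 on SVZ, 19.2 to 19.7 on hippocampal Sox2-GFP and 23.6 to 29.6 on DCX-DsRed arrays. For 8 microglia and macrophage markers they were 5.16 to 5.97, 6.67 to 10.4 and 6.01 to 7.13 in the same order. For 7 endothelial and mural markers they were 3.41 to 9.89, 3.32 to 9.25 and 3.76 to 4.44, with overlap. In RNA of sorted bulk cells, fewer cells of a type and less RNA per cell cannot be told apart.

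Cyp27a1 was lower in both Sox2-GFP groups than in DCX-DsRed cells, and it was the only 1 of 31 tested members called in either comparison. Its product is the mitochondrial sterol hydroxylase that acts on the end of the cholesterol side chain and also serves bile acid synthesis in the liver. Its levels were -4.90, -5.59 and -3.54 on SVZ Sox2-GFP arrays A, B and C. They were -5.14, -5.97 and -8.32 on hippocampal Sox2-GFP arrays A, B and C, and 0.32, -0.42 and 0.23 on DCX-DsRed arrays A, B and C. All 6 Sox2-GFP arrays lay more than 3 log2 units below the lowest DCX-DsRed array, and both kinds of Sox2-GFP array overlapped with each other. The probe was well above background on all 3 SVZ arrays and all 3 DCX-DsRed arrays and on no hippocampal Sox2-GFP array.

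**Figure D1:**
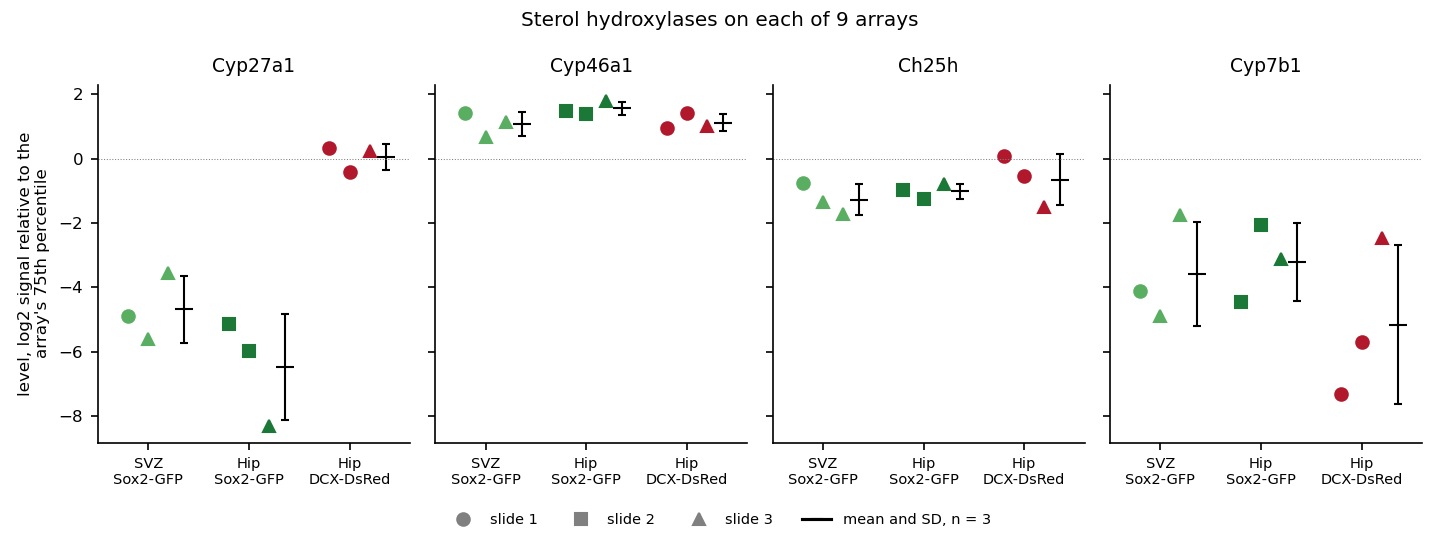
Level of each sterol hydroxylase on each array, as log2 signal with the 75th percentile of the array at 0; symbols give the slide and black bars the mean and SD of 3 arrays. Cyp27a1 lies at or below -3.54 on all 6 Sox2-GFP arrays and between -0.42 and 0.32 on the DCX-DsRed arrays, while the groups overlap for Ch25h and Cyp7b1 and lie within 0.66 to 1.79 for Cyp46a1.

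The promoter window of Cyp27a1 is shown because it is the only called member. RefSeq places the window at chr1:74713285-74713584 of GRCm38.p6, plus strand, 250 bases before to 50 bases after an annotated start. It holds 2 matches to the letters CCAAT, the core bound by the factor NF-Y, both on the other strand and therefore printed as ATTGG in capitals.
Cyp27a1: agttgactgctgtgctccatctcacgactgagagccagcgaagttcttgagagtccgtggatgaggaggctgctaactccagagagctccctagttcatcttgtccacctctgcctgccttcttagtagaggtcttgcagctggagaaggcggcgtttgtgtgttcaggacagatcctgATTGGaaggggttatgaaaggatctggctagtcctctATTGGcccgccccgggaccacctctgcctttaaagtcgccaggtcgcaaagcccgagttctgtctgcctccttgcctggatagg
The window held no match on either strand to TCACNCCAC, a form of the sterol regulatory element to which SREBPs bind, nor to AGGTCA repeated with 4 bases between, the form bound by LXR. Those letters occurred in 1.44% and 0.0148% of the windows of 27025 genes, and CCAAT in 41.1%.

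Against DCX-DsRed cells, Cyp27a1 fell in hippocampal Sox2-GFP cells, where it averaged -6.47 ± 1.65, against 0.05 ± 0.40 in DCX-DsRed cells (SD, n = 3 each). The difference was -6.52 (SE 0.84, limma adjusted p = 0.00778). Because the signal did not clear the background in hippocampal Sox2-GFP cells, the fold is a bound: at least 47.5-fold lower, from the DCX-DsRed mean against the higher of the probe's own signal and the lowest signal that cleared the background on each dim array. This bound holds for the processed signal only, since with the normexp background correction the difference was -3.78, or 13.8-fold. Of 31 members tested, 1 was called lower and 0 were called higher, where 1.43% and 1.74% of all genes were. With a slide term the difference was -8.57 (adjusted p = 0.00927), within slide 3, with 1 array a group, it was -8.55 (adjusted p = 0.223), and without hippocampal Sox2-GFP replicate C it was -5.60 (adjusted p = 0.00841).

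In SVZ Sox2-GFP cells Cyp27a1 averaged -4.68 ± 1.04, against 0.05 ± 0.40 in DCX-DsRed cells (SD, n = 3 each). The difference was -4.72 (SE 0.84, limma adjusted p = 0.038), or 26.4-fold lower. On SVZ replicate B the level of -5.59 lay near the lowest signal that cleared the background there, -5.86. With the normexp background correction the difference was -3.34, or 10.1-fold (limma adjusted p = 0.00352), so the fold depended on the background correction. Cyp27a1 was the single member called lower of 31, with 0 called higher, where 1% and 0.542% of all genes were. Both comparisons share the DCX-DsRed arrays. The size of this difference held within slide 1 (-4.85, adjusted p = 0.136) and within slide 3 (-4.80, adjusted p = 0.439), and the fit with a slide term gave -4.83 (adjusted p = 0.0252). The call was lost when any 1 DCX-DsRed or SVZ array, or hippocampal Sox2-GFP replicate B, was left out, with adjusted p from 0.0639 to 0.138 and differences from -5.29 to -4.27. SVZ minus hippocampal Sox2-GFP cells gave 1.80 (SE 0.84, adjusted p = 0.495), and 0.88 (adjusted p = 0.803) without hippocampal Sox2-GFP replicate C.

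The summed myelin marker signal moved with Cyp27a1 across the groups. On DCX-DsRed arrays both were highest, and hippocampal Sox2-GFP replicate C had the lowest of both, with a sum of 6.05 and a level of -8.32. The order was not kept within the Sox2-GFP arrays: SVZ replicate B had the highest sum among them, 92.2, and a level of -5.59, while SVZ replicate C had a sum of 29.5 and a level of -3.54. The part of the myelin markers in the difference of Cyp27a1 was not tested.

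**Figure D2:**
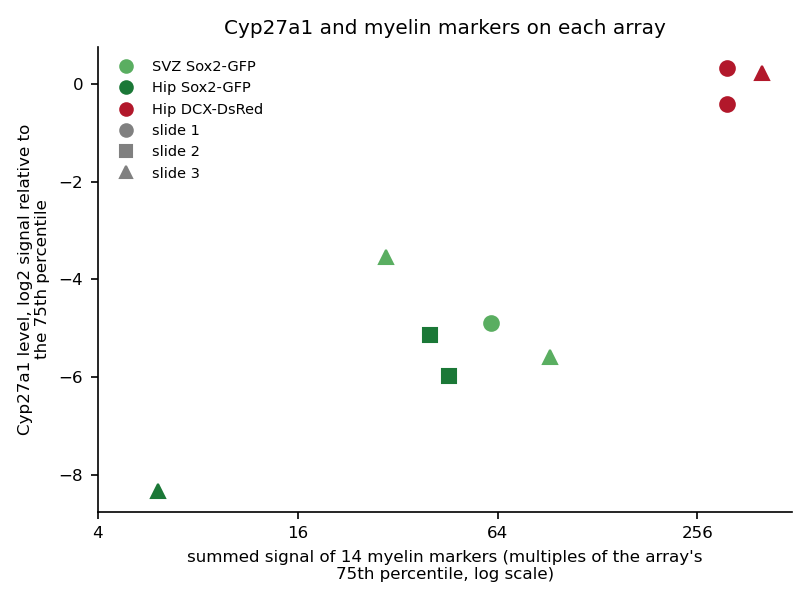
Cyp27a1 level, in log2 with the 75th percentile of the array at 0, against the summed signal of 14 myelin markers on a log axis, for each of 9 arrays, coloured by group and shaped by slide. The 3 DCX-DsRed arrays lie apart at sums of 314 to 400, and the 6 Sox2-GFP arrays lie between 6.05 and 92.2.

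The other 3 hydroxylases were not called in any comparison, where at most 1.74% of all genes were called in either direction. Cyp46a1, the hydroxylase through which neurons dispose of cholesterol, stood at 1.42, 0.66 and 1.12 on SVZ arrays A, B and C, at 1.49, 1.38 and 1.79 on hippocampal Sox2-GFP replicates and at 0.94, 1.42 and 1.00 on DCX-DsRed replicates. It varied by 1.13 over all 9 arrays, the least of the hydroxylases, and the groups overlapped. Its difference was 0.44 (95% interval -0.31 to 1.19) between hippocampal Sox2-GFP and DCX-DsRed cells and -0.05 (-0.80 to 0.70) between SVZ and DCX-DsRed cells.

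Ch25h, a hydroxylase of the endoplasmic reticulum that macrophages induce in inflammation, read -0.77, -1.34 and -1.71 on SVZ arrays, -0.99, -1.26 and -0.79 on hippocampal Sox2-GFP arrays and 0.08, -0.55 and -1.50 on DCX-DsRed arrays. The 3 groups overlapped. Its differences from DCX-DsRed cells were -0.62 (adjusted p = 0.641) in SVZ cells and -0.36 (adjusted p = 0.746) in hippocampal Sox2-GFP cells. Cyp7b1, which inactivates oxysterols, read -4.10, -4.89 and -1.77 on SVZ arrays, -4.47, -2.05 and -3.13 on hippocampal Sox2-GFP arrays and -7.33, -5.69 and -2.46 on DCX-DsRed arrays. It cleared the background on all 3 arrays of both Sox2-GFP groups but on 1 of 3 DCX-DsRed arrays, and its spread within each group was large: the SD was 1.62 in SVZ, 1.21 in hippocampal Sox2-GFP and 2.48 in DCX-DsRed cells. No difference of Cyp7b1 passed the test (adjusted p = 0.692, 0.503 and 0.943 for SVZ minus DCX-DsRed, hippocampal Sox2-GFP minus DCX-DsRed and SVZ minus hippocampal Sox2-GFP).

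All 18 synthesis enzymes were well above background on all 9 arrays. Their used probes ranged from -4.74 to 4.23 over genes and arrays, and a gene's own range over the 9 arrays had a median of 2.01. The least variable was Hsd17b7, a reductase late in the pathway, with a range of 1.09. Of the 18, 0 were called by limma in any of the 3 comparisons. Of all genes, 0.542% were called higher and 1% lower in SVZ minus DCX-DsRed cells. The shares were 1.74% and 1.43% in hippocampal Sox2-GFP minus DCX-DsRed cells and 0.0442% and 0.354% in SVZ minus hippocampal Sox2-GFP cells. An unadjusted p under 0.05 was found for 1, 2 and 3 of the 18 in these comparisons, in that order. Of all genes, 13.7%, 16.9% and 10.8% had it. With a slide term Nsdhl was the 1 synthesis enzyme called in both comparisons with DCX-DsRed cells, and Nsdhl and Acat2 were called between the Sox2-GFP groups. That term gave 794, 2024 and 2128 of 24891 genes called in the 3 comparisons, in the order above. The members whose probe levels set the extremes of spread were Nsdhl, with a range of 6.19, and Tm7sf2, a sterol reductase, with 4.42.

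SVZ arrays had the highest median level of the 18 synthesis enzymes. The median was 0.66, 0.74 and 1.23 on SVZ arrays A, B and C, 0.21, 0.61 and 0.09 on hippocampal Sox2-GFP replicates and 0.05, 0.21 and 0.31 on DCX-DsRed replicates. Every SVZ array was above every other array, although SVZ replicate A exceeded hippocampal Sox2-GFP replicate B by little. The sum over the 18 probes, in multiples of the 75th percentile, was 51.2, 50.4 and 55.5 on SVZ arrays, 36.3, 37.1 and 32.2 on hippocampal Sox2-GFP arrays and 45.7, 40.4 and 41.1 on DCX-DsRed arrays. Without Acat2 and Fdps, the members with the highest mean signal, the sum over the other 16 was 28.2 to 32.8 on SVZ arrays, 22.2 to 24.5 on hippocampal Sox2-GFP arrays and 20.9 to 24.7 on DCX-DsRed arrays. With those 2 left out, hippocampal Sox2-GFP and DCX-DsRed arrays overlapped and SVZ arrays still did not overlap either. These sums and medians are descriptions with no test. The summed astrocyte marker signal was 87.5 to 171.5 on SVZ arrays, above the 32.8 to 41.5 of DCX-DsRed arrays and overlapping the 16.3 to 96.9 of hippocampal Sox2-GFP arrays, and its part in these levels was not tested.

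Between SVZ and DCX-DsRed cells, 13 of 18 synthesis enzymes had a difference above 0, with a median of 0.50, against a median of -0.03 over all genes. The groups did not overlap for 4 of them, all higher in SVZ cells: Acat2, Lss, Msmo1 and Nsdhl. Over all 31 members 6 were higher and 2 lower without overlap, where 10.6% and 10.4% of all genes were. The smallest p of the class was that of Msmo1, a sterol methyl oxidase that works on the methyl groups of lanosterol products. It read 0.81, 0.29 and 1.36 on SVZ arrays and -0.76, -1.12 and -0.63 on DCX-DsRed arrays, a difference of 1.66 (SE 0.50, adjusted p = 0.178). Its difference was 1.75 within slide 1 and 1.45 within slide 3. The median over the 18 was 0.145 within slide 3, where the median of all genes was 0.144, and 0.468 within slide 1, where it was -0.02.

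Between hippocampal Sox2-GFP and DCX-DsRed cells the synthesis enzymes had a median difference of -0.16, against -0.08 over all genes, with 7 of 18 above 0. Without hippocampal Sox2-GFP replicate C the median was 0.18 and 11 were above 0. Fdps, which makes farnesyl diphosphate, and Ebp, a sterol isomerase, were lower without overlap, and Dhcr7, which makes cholesterol in the last step of one branch, had an unadjusted p under 0.05. The smallest p was that of Fdps, at 2.70, 2.74 and 2.67 on hippocampal Sox2-GFP arrays and 4.23, 4.06 and 3.37 on DCX-DsRed arrays, a difference of -1.18 (SE 0.39, adjusted p = 0.168). A second Fdps probe gave 0.33, so the direction depended on the probe. Over all 31 members 1 was higher and 4 were lower without overlap, where 11.4% and 13.3% of all genes were.

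Between SVZ and hippocampal Sox2-GFP cells, 14 of 18 synthesis enzymes had a difference above 0, with a median of 0.43, against 0.07 over all genes. Without hippocampal Sox2-GFP replicate C, 14 were above 0 and the median was 0.30. In this comparison 0 of 31 members were called in limma, where 0.0442% of all genes were called higher and 0.354% lower, and 3 of 31 (9.68%) had an unadjusted p under 0.05, Dhcr7, Msmo1 and Nsdhl, a share near the 10.8% of all genes. The groups did not overlap for 6 members, all higher in SVZ cells, and for 0 lower, where 8.83% and 8.1% of all genes were. These were Acat2, Dhcr7, Fdps, Msmo1 and Nsdhl of the synthesis enzymes and the regulator Srebf2. Dhcr7 had the smallest p, at -0.25, -0.40 and 0.31 on SVZ arrays and -1.45, -1.53 and -2.49 on hippocampal Sox2-GFP arrays, a difference of 1.71 (SE 0.51, adjusted p = 0.28). Within slide 3 its difference was 2.44 (adjusted p = 0.252).

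**Figure D3:**
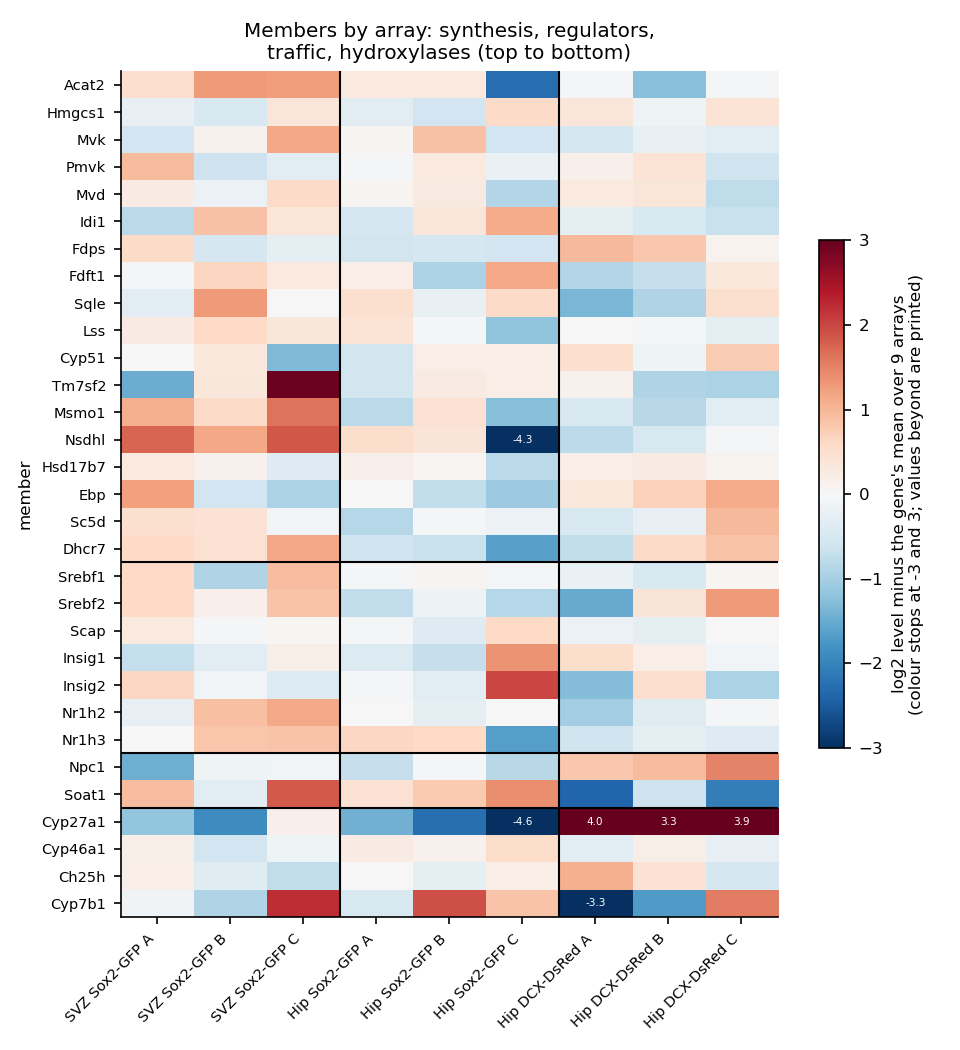
Level of each of 31 tested members on each array minus that gene's mean over the 9 arrays, in log2, with genes in pathway order and classes parted by lines; values beyond the colour scale are printed. Values beyond the scale are those of Nsdhl and Cyp27a1 on hippocampal Sox2-GFP replicate C, Cyp27a1 on the DCX-DsRed arrays and Cyp7b1 on DCX-DsRed replicate A, whose levels are -4.74, -8.32, -0.42 to 0.32 and -7.33.

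Nsdhl, a sterol dehydrogenase of the demethylation steps, shows how single probes and arrays bear on these values. The probe used read 1.33, 0.74 and 1.45 on SVZ arrays, 0.11, -0.02 and -4.74 on hippocampal Sox2-GFP arrays and -1.19, -0.90 and -0.47 on DCX-DsRed arrays. Its difference of SVZ minus hippocampal Sox2-GFP cells was 2.73 (adjusted p = 0.45), and 1.13 (adjusted p = 0.398) without replicate C. With a slide term, which rests on replicate C, the difference was 5.97 (adjusted p = 0.00494), and against DCX-DsRed cells it was 1.97 (adjusted p = 0.0421) in SVZ and -4.00 (adjusted p = 0.0117) in hippocampal Sox2-GFP cells. Its other 3 probes read -0.64, 0.43 and 0.21 on that replicate, with differences of -0.18, -0.70 and -0.10. Against DCX-DsRed cells SVZ cells differed by 2.03 on the probe used (adjusted p = 0.509, and 0.0244 without hippocampal Sox2-GFP replicate C) and by 1.45, -0.11 and 0.87 on the others.

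Of the 31 members, 16 had several kept probes, and the probes often disagreed in sign. All probes of a member had the same sign for 8 of 16 members in SVZ minus DCX-DsRed cells, for 7 of 16 in hippocampal Sox2-GFP minus DCX-DsRed cells and for 8 of 16 in SVZ minus hippocampal Sox2-GFP cells. Soat1, Lss, Idi1, Dhcr7 and Sc5d had the same sign at all their probes in each comparison. Lss, which closes the rings to form lanosterol, had 3 probes: SVZ minus hippocampal Sox2-GFP cells differed by 0.68, 1.61 and 1.47, and SVZ minus DCX-DsRed cells by 0.50, 0.84 and 0.61. Cyp27a1 had 1 probe, as had Cyp46a1, Ch25h and Cyp7b1. Both Idi1 probes were named by the file's symbol alone, which RefSeq's list of accessions did not bear out, so their identity is uncertain.

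All 7 regulators were well above background on all 9 arrays. Of the 7, 0 were called by limma, where at most 1.74% of all genes were called in either direction of any comparison. An unadjusted p under 0.05 was found for 1 in SVZ minus DCX-DsRed cells, where 13.7% of all genes had it. It was found for 0 in hippocampal Sox2-GFP minus DCX-DsRed and SVZ minus hippocampal Sox2-GFP cells, where 16.9% and 10.8% had it. Srebf2, the main activator of synthesis genes, read 2.98, 2.55 and 3.24 on SVZ arrays, 1.65, 2.24 and 1.55 on hippocampal Sox2-GFP arrays and 0.89, 2.79 and 3.67 on DCX-DsRed arrays. SVZ arrays lay above all hippocampal Sox2-GFP arrays, with a difference of 1.11 (SE 0.66, adjusted p = 0.59), and its other 3 probes gave 0.27, -0.36 and 0.60. Srebf1, whose product also drives fatty acid synthesis, read 0.86, -0.64 and 1.17 on SVZ arrays, 0.19, 0.34 and 0.21 on hippocampal Sox2-GFP arrays and 0.06, -0.19 and 0.32 on DCX-DsRed arrays, and the groups overlapped. Scap, the escort, was the least variable member, with a range of 0.99: it read 1.47, 1.16 and 1.24 on SVZ arrays, 1.15, 0.80 and 1.80 on hippocampal Sox2-GFP arrays and 1.01, 0.89 and 1.18 on DCX-DsRed arrays.

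The retention proteins were more variable than Scap. Insig1 read 0.21, 0.57 and 1.09 on SVZ arrays, 0.51, 0.22 and 2.25 on hippocampal Sox2-GFP arrays and 1.44, 1.12 and 0.82 on DCX-DsRed arrays. Insig2 read -1.59, -2.28 and -2.61 on SVZ arrays, -2.26, -2.52 and -0.19 on hippocampal Sox2-GFP arrays and -3.50, -1.69 and -3.16 on DCX-DsRed arrays. On the probes used for both genes, hippocampal Sox2-GFP replicate C was the highest of the 9 arrays and the groups overlapped. Another Insig2 probe was highest on SVZ replicate C, at -0.96 against -1.14 on hippocampal Sox2-GFP replicate C. On that probe the hippocampal Sox2-GFP arrays lay above the DCX-DsRed arrays without overlap. A further Insig2 probe, well above background on 3 arrays, was lowest on hippocampal Sox2-GFP replicate C (-8.39).

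Neither LXR gene passed the test. Nr1h2, which encodes LXR beta, read 0.55, 1.71 and 1.95 on SVZ arrays, 0.83, 0.51 and 0.79 on hippocampal Sox2-GFP arrays and -0.23, 0.45 and 0.75 on DCX-DsRed arrays. It had the smallest p of the regulators, with a difference of SVZ minus DCX-DsRed cells of 1.08 (SE 0.45, adjusted p = 0.334). Nr1h3, which encodes LXR alpha, read 0.38, 1.21 and 1.21 on SVZ arrays, 0.98, 0.97 and -1.30 on hippocampal Sox2-GFP arrays and -0.23, 0.10 and -0.03 on DCX-DsRed arrays. SVZ arrays did not overlap with DCX-DsRed arrays, with a difference of 0.99 (SE 0.62, adjusted p = 0.56).

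Soat1, the enzyme that esterifies cholesterol for storage in droplets, read 1.01, -0.22 and 1.93 on SVZ arrays, 0.56, 0.87 and 1.5 on hippocampal Sox2-GFP arrays and -2.28, -0.52 and -1.99 on DCX-DsRed arrays. Every Sox2-GFP array was above every DCX-DsRed array. The difference from DCX-DsRed cells was 2.5 (SE 0.66, adjusted p = 0.126) in SVZ cells and 2.57 (SE 0.66, adjusted p = 0.084) in hippocampal Sox2-GFP cells, so neither passed the threshold, and none of the 23 alternatives run for SVZ or the 22 run for hippocampal Sox2-GFP cells brought it past. The 2 Sox2-GFP groups differed by -0.07 (95% interval -1.58 to 1.45). A second Soat1 probe, well above background on 8 arrays, had differences of 2.66 and 2.81 from DCX-DsRed cells, with overlap: DCX-DsRed replicate C read -0.64 on it and replicate A -6.97. Within slide 3 the first probe differed by 2.84 (adjusted p = 0.574) in SVZ cells and by 3.49 (adjusted p = 0.406) in hippocampal Sox2-GFP cells.

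Npc1, which exports cholesterol from lysosomes, read 0.02, 1.36 and 1.41 on SVZ arrays, 0.80, 1.44 and 0.66 on hippocampal Sox2-GFP arrays and 2.29, 2.43 and 2.96 on DCX-DsRed arrays. Every Sox2-GFP array was below every DCX-DsRed array. The difference from DCX-DsRed cells was -1.63 (SE 0.46, adjusted p = 0.154) in SVZ cells and -1.59 (SE 0.46, adjusted p = 0.121) in hippocampal Sox2-GFP cells. With a slide term both passed the threshold, at -1.96 (adjusted p = 0.0368) and -2.56 (adjusted p = 0.0308). Within slide 3 they were -1.58 (adjusted p = 0.463) and -2.31 (adjusted p = 0.262), and within slide 1 the SVZ difference was -2.34 (adjusted p = 0.16). The summed myelin marker signal was likewise lower on all Sox2-GFP arrays, and its part in the differences of Npc1 and Soat1 was not tested.

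A second Npc1 probe had the same sign in hippocampal Sox2-GFP minus DCX-DsRed cells (-2.57) and the opposite sign in SVZ minus DCX-DsRed cells (0.93). It was dim, at -4.19, -4.68 and -3.60 on SVZ arrays, -7.05, -7.52 and -8.40 on hippocampal Sox2-GFP arrays and -5.16, -5.40 and -4.69 on DCX-DsRed arrays. It cleared the background on all 3 SVZ arrays, on no hippocampal Sox2-GFP array and on DCX-DsRed replicate C alone, so it was kept through the SVZ group and its differences are given with no test. Npc2, the soluble partner of Npc1 in the lysosome, was not tested, since its only probe had outlier flags on hippocampal Sox2-GFP replicate B and DCX-DsRed replicate C. With those spots kept it read 1.69, 0.27 and 2.03 on SVZ arrays, 2.29, -1.13 and 3.44 on hippocampal Sox2-GFP arrays and 1.63, 1.43 and 3.20 on DCX-DsRed arrays, with overlap and adjusted p of 0.847 and 0.852 against DCX-DsRed cells.

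**Figure D4:**
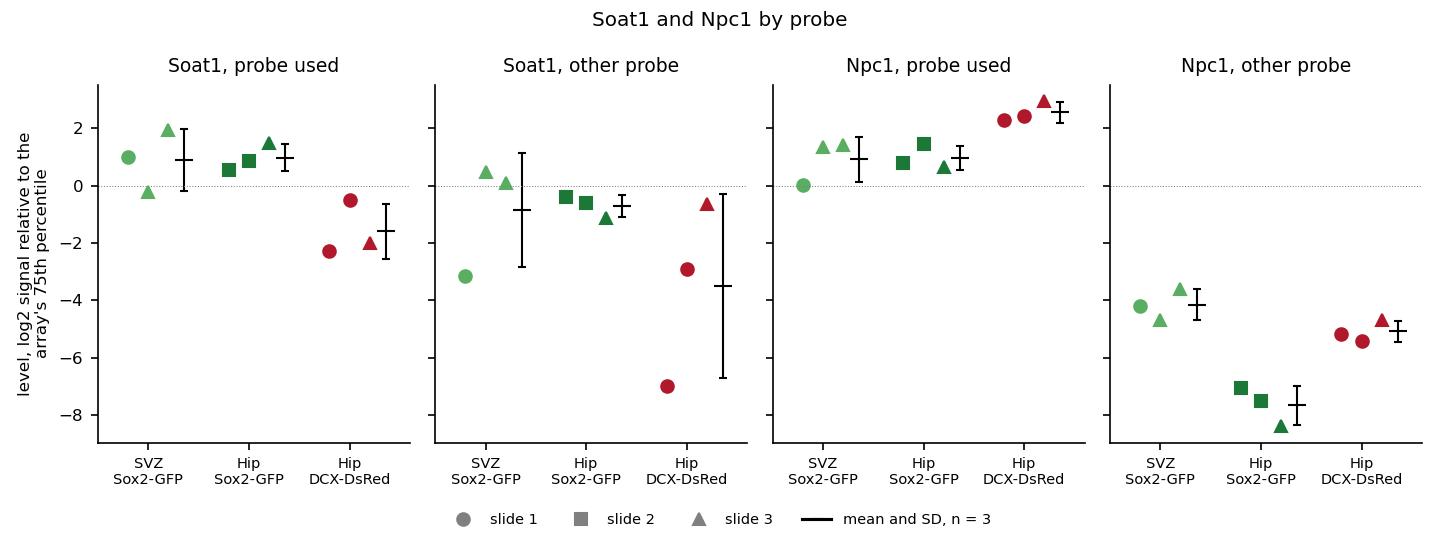
Level of Soat1 and Npc1 on each array by probe, as log2 signal with the 75th percentile of the array at 0; symbols give the slide and black bars the mean and SD of 3 arrays. On the probes used, Soat1 lies above and Npc1 below all DCX-DsRed arrays on each Sox2-GFP array, and the other Npc1 probe orders the groups differently.

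Synthesis was set against the other 13 tested members by the median difference of each. Between SVZ and DCX-DsRed cells the median was 0.50 for synthesis and 0.40 for the others, a gap of 0.10. Between hippocampal Sox2-GFP and DCX-DsRed cells it was -0.16 and 0.22, a gap of -0.38, and without hippocampal Sox2-GFP replicate C the gap was -0.03. Between SVZ and hippocampal Sox2-GFP cells it was 0.43 and -0.04, a gap of 0.47, and without that replicate 0.10. The same gap taken on single arrays varied most within the hippocampal Sox2-GFP group, and the gaps are descriptions with no test.

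**Figure D5:**
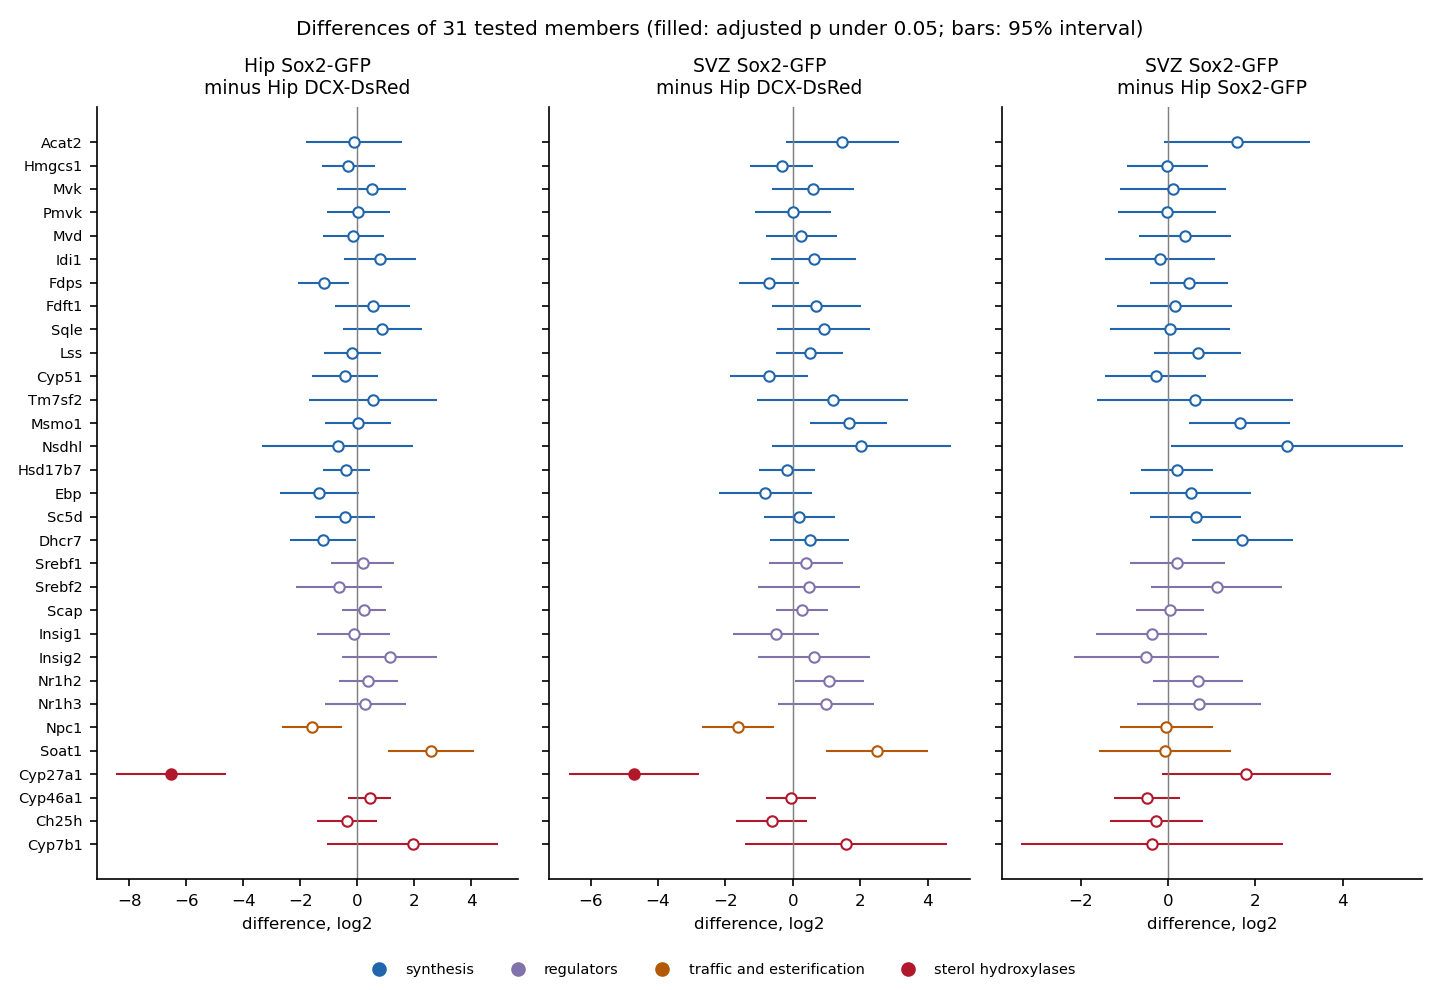
Difference of each of 31 tested members in the 3 comparisons, in log2 with 95% intervals, coloured by class; filled points have an adjusted p under 0.05. Cyp27a1 is the filled point in both comparisons with DCX-DsRed cells, and no point is filled in SVZ minus hippocampal Sox2-GFP cells.

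Other genes of the pathway that are not members were read from a list of 34, of which 33 were tested. Between SVZ and DCX-DsRed cells 1 of 33 was called lower, where 1% of all genes were. Abcg1, an exporter that loads cholesterol onto lipoproteins and a target of LXR, read -6.56, -6.68 and -2.16 on SVZ arrays, -1.17, -2.33 and -0.34 on hippocampal Sox2-GFP arrays and 1.20, 1.19 and 1.49 on DCX-DsRed arrays. It fell in SVZ cells against DCX-DsRed cells, with a difference of -6.43 (SE 1.14, adjusted p = 0.0378), with 1 of 3 SVZ arrays well above background, so its size rests on signals mostly near the background. With the normexp correction the difference was -4.44 (adjusted p = 0.00929), and the call was lost in 11 of 23 alternatives, among them a slide term (adjusted p = 0.0515) and the left-out arrays other than SVZ replicate C and hippocampal Sox2-GFP replicate C. Between hippocampal Sox2-GFP and DCX-DsRed cells 1 of 33 was called higher and 0 lower, where 1.74% and 1.43% of all genes were. Cyb5r3 encodes a reductase that passes electrons to sterol oxidases and desaturases. It read -1.13, -0.22 and 0.50 on SVZ arrays, 1.38, 0.90 and 0.56 on hippocampal Sox2-GFP arrays and -3.33, -2.0 and -5.13 on DCX-DsRed arrays. The difference of hippocampal Sox2-GFP minus DCX-DsRed cells was 4.44 (SE 0.78, limma adjusted p = 0.0248). With a slide term it was 4.44 (adjusted p = 0.106), and the call was lost in 7 of 22 alternatives. SVZ cells were also higher than DCX-DsRed cells without overlap, by 3.21 (SE 0.78, adjusted p = 0.101), and were not called. Between SVZ and hippocampal Sox2-GFP cells 0 of 33 were called by limma, and 5 (15.2%) had an unadjusted p under 0.05, against 10.8% of all genes.

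The promoters of the synthesis genes were searched for the same letters, as a description. RefSeq windows were found for 27 members, 15 of them synthesis genes. The synthesis genes Fdps, Fdft1 and Sqle had none. CCAAT occurred in 14 of the 15 (93.3%), against 41.1% of all genes. It also occurred in 4 of 7 regulators, 2 of 2 traffic genes and 2 of 3 hydroxylases. Only exact letters were searched, so other forms of an element were not counted. The sterol regulatory element form TCACNCCAC occurred in 1 member, Hmgcs1, which encodes an early enzyme of the mevalonate pathway, and in 1.44% of all genes. It is printed in capitals with 10 bases on each side, from chr13:119690204-119690232 of GRCm38.p6, plus strand, and its first base lies 137 bases before the start.
Hmgcs1: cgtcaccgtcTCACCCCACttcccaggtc
Hmgcs1 read 1.1, 0.90 and 1.71 on SVZ arrays, 1.04, 0.79 and 1.93 on hippocampal Sox2-GFP arrays and 1.72, 1.23 and 1.77 on DCX-DsRed arrays. Its groups overlapped in all 3 comparisons and its differences lay between -0.33 and -0.01. Its other 2 probes gave SVZ minus DCX-DsRed differences of 0.66 and -0.69, so the direction depended on the probe.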

How the data were processed

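The members and the other gene lists were chosen with earlier results of these data known. Per the file headers, the deposited intensity of each spot is the processed signal of Agilent Feature Extraction 9.5.1.1, from which background and a spatial trend had been taken off, with a surrogate for spots near the noise and no scaling between arrays. The deposited files also hold raw mean and background intensities and quality flags. In the submitters' processing notes limma is named without a version. The file of DCX-DsRed replicate A had been saved by a spreadsheet program and holds rounded signals, so names came from another file. Titles gave the groups and replicate letters. Whether replicates came from separate pools is not stated, so p-values measure the spread between samples, which may be technical.

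Control spots and outlier spots were left out, and 464 of 41174 probes were dropped because some array had only flagged spots for them. Values were taken to log2 after division by the 75th percentile of each array. Probes were named through RefSeq (GRCm38.p6, used for names and promoter sequences) by accession (22904), symbol (6647) or a single synonym (3109), and 8455 kept the file's name; members were matched by the file's symbol. A probe was kept if 3 or more of 9 arrays had it well above background, and a gene was represented by its brightest probe. Of 59 member probes, 3 had outlier flags and 1 was too dim. All 9 arrays entered 1 fit by limma 3.58.1 (lmFit, eBayes; R 4.3.3), which left 6 residual degrees of freedom, and p-values were adjusted over 24891 genes by Benjamini-Hochberg. The fit was tested on simulated data. Called members, the hydroxylases and the regulators are given in full, other members by range with the smallest p of the class, and other pathway genes where called, except for 1 result that is not reported here. Nsdhl, Soat1, Npc1 and Lss, given in more detail for their arrays or probes, and Hmgcs1, given for its promoter site, were chosen after their values were seen. The number of arrays limits the precision. Alternatives covered background correction, normalization, the dim filter, the choice of probe, outlier spots, the variance model, the groups fitted, slide, the replicate letter and each array left out. Deviations from group means correlated at -0.04 to 0.12 between arrays of the same letter and at -0.15 to 0.10 between arrays of different letters. The highest same-letter value was that of 2 arrays on slide 1. These correlations showed no pairing by letter but cannot decide whether the letters mark paired samples.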

Additional observations from a re-analysis of the deposited data

How the results depend on the processing

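Cyp27a1 kept its sign in both comparisons with DCX-DsRed cells under every alternative run, at -8.57 to -3.78 in hippocampal Sox2-GFP cells (22 alternatives, the call lost in 1) and at -5.29 to -3.34 in SVZ cells (23 alternatives, the call lost in 10). Over all tested members, 1939 values under an alternative kept their direction and side of the threshold, 10 passed it newly, 11 lost it and 117 not called on either side changed sign. Within slide 3, a fit with 1 residual degree of freedom, limma called 0 genes and 0 members in all 3 comparisons, and within slide 1 likewise in SVZ minus DCX-DsRed cells.

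For SVZ minus DCX-DsRed cells, 385 genes were called, and 794 with slide as a fixed block, 834 with slide as a random block, 191 with the replicate block and 49 to 848 with 1 array left out. Of 31 members, 3, 2, 0 and 0 to 2 were called there, beside these counts among 24891 genes. The gap between synthesis and other members (0.10) was -0.24 to 0.37 with 1 array left out. For hippocampal Sox2-GFP minus DCX-DsRed cells, 790 genes were called, and 2024 with slide as a fixed block, 489 with the replicate block and 251 to 773 with 1 array left out. Of 31 members, 3 were called there with slide as a fixed block, where 2024 of 24891 genes were. With the mean of probes 2 members were called, where 1000 of 24891 genes were. With any 1 array left out, 1 member was called. The gap (-0.38) was -1.03 with slide as a fixed block, -0.67 within slide 3 and -0.674 to -0.0287 with 1 array left out. For SVZ minus hippocampal Sox2-GFP cells, 99 genes were called, and 162 with normexp, 173 with the mean of probes, 8 with these 2 groups only, 2128 with slide as a fixed block, 13 with the replicate block and 25 to 97 with 1 array left out. Of 31 members, 3 were called there with slide as a fixed block (Acat2, Nr1h3 and Nsdhl, through hippocampal Sox2-GFP replicate C), where 2128 of 24891 genes were. The gap (0.47) was 0.69 with slide as a random block, 0.71 within slide 3 and 0.10 to 0.51 with 1 array left out. With the replicate block Cyp27a1 lost its call in SVZ minus DCX-DsRed cells (limma adjusted p = 0.0979), and whether the letters pair the arrays is not known. The cause of these changes was not tested. The within-slide, 2-group and left-out fits also held fewer arrays. The fixed slide block also moved the median of all genes in SVZ minus hippocampal Sox2-GFP cells to 0.24, against 0.07 without it, and that of the synthesis enzymes to 0.75, against 0.43.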
